A study of Mus musculus with 8 samples.

Results

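The genes described here make cholesterol and fatty acids and control that synthesis. They are 29 genes chosen by pathway membership: 6 of the mevalonate pathway, 10 that turn its product into cholesterol, 4 sterol-sensing regulators and 9 of fatty acid synthesis, elongation and desaturation. The list was drawn up because Scd1 rises strongly in GFP+ cells by P6, so the values of Scd1 in GFP+ cells, and its comparisons with GFP- cells that use those libraries, are given as description with no test read from them. Hmgcs1 had no row under its symbol, and 28 of the 29 genes were therefore measured, among 36536 genes in the count tables. All 28 passed the filter on low counts in every comparison.

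RNA was sequenced from cells sorted from cochleas of Lfng-GFP BAC transgenic mice, strain B6;FVB-Tg(Lfng-EGFP)HM340Gsat/Mmucd, in which a transgene carrying the Lfng regulatory sequence drives GFP in most, but not all, types of supporting cell. GFP+ and GFP- cells were collected at postnatal day 1 (P1) and day 6 (P6) with no culture and no treatment, giving 4 groups (P1 GFP+, P1 GFP-, P6 GFP+ and P6 GFP-) of 2 libraries each. Both fractions carry the transgene and came from pooled cochleas, GFP+ denotes the brightest sorted cells, and GFP- denotes a mixture of the other cochlear cell types. At both ages the duct was freed from the modiolus. The lateral wall, the stria vascularis and Reissner's membrane were taken off at P1 but only in part at P6, so that age and dissection cannot be told apart.

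Acetyl-CoA is the common starting material of both pathways. In the first, it is built into mevalonate, then into isoprenoid units, squalene, lanosterol and finally cholesterol. In the second, it is carboxylated and polymerised into saturated fatty acids, which elongases lengthen and desaturases provide with double bonds. Both pathways are controlled by the SREBP transcription factors, membrane proteins that SCAP escorts out of the endoplasmic reticulum when sterols are scarce and that INSIG proteins hold back when they are plentiful. In the inner ear, as elsewhere, cell membranes are built from these products, and so is the myelin of Schwann cells around the auditory nerve fibres.

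The libraries held between 17769024 and 67695039 gene counts. Summed over 9 supporting cell markers, GFP+ libraries reached 6204 to 9563 CPM (counts per 1000000 of the library's gene total) against 539 to 710 in GFP- libraries, and Lfng itself lay at 2365 to 3755 CPM against 17.2 to 45.8 CPM. Of these 9, Slc1a3 went the other way at P1, with 157 and 157 CPM in GFP+ and 379 and 312 CPM in GFP- libraries. The 10 hair cell markers summed to 728 and 843 CPM in P1 GFP+ and 482 and 453 CPM in P1 GFP- libraries. At P6 they summed to 466 and 538 CPM in GFP+ and 357 and 396 CPM in GFP- libraries. At each age the sum was thus higher in GFP+ libraries, though not every marker was. In P6 GFP+ libraries Otof read 114 and 118 CPM, against 12.5 and 22 CPM in P6 GFP- libraries. Myo6 overlapped there, at 250 and 325 CPM in GFP+ and 312 and 340 CPM in GFP- libraries. The source of the hair cell transcript was not tested. P6 GFP+ replicate 2 stood apart from replicate 1: its 11 Schwann cell markers summed to 2767 CPM against 1345 CPM, its 5 endothelial markers to 196 CPM against 50.4 CPM, and its 5 markers of strial and lateral wall epithelium to 211 CPM against 30.8 CPM. The P1 GFP- libraries also differed, with 9 neuron markers summing to 231 CPM in replicate 1 and 789 CPM in replicate 2, and the strial list to 87.6 and 186 CPM. Counts of members past the test changed when single libraries were left out, as did those of all genes. The members' median log2 difference without single libraries is therefore given. In these bulk samples, fewer cells of a type and less RNA per cell cannot be told apart.

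**Figure D1:**
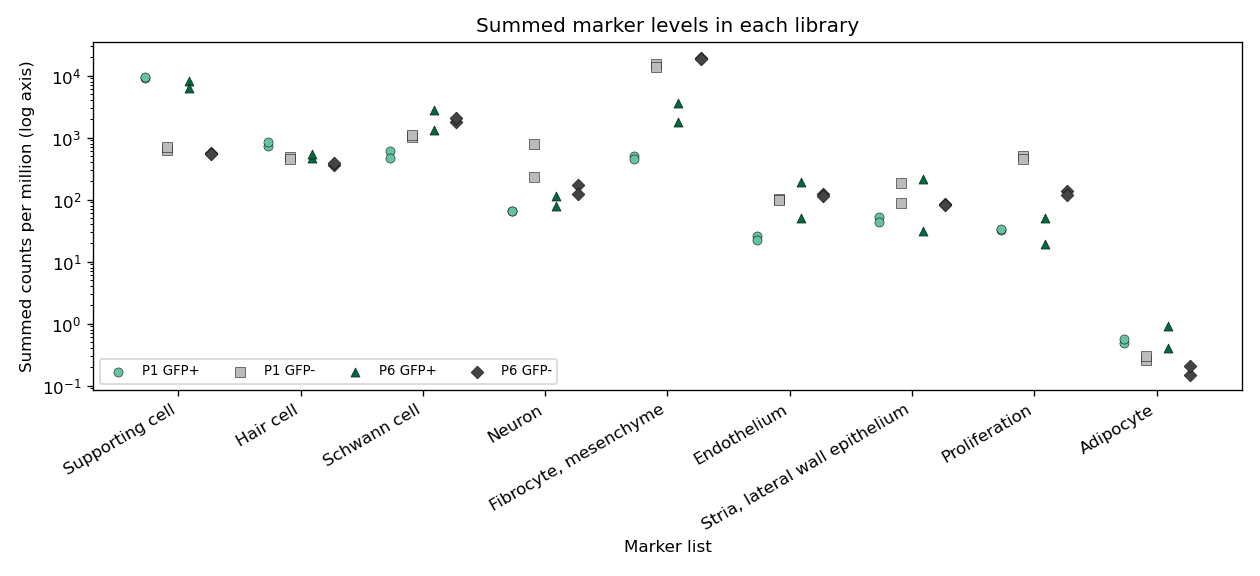
Summed CPM (log axis) of 9 lists of cell type markers in each of the 8 libraries, 1 point a library, with symbols for the 4 groups. The supporting cell sum was higher in all GFP+ libraries. The P6 GFP+ libraries were split for the Schwann, endothelial and strial lists, and the adipocyte list stayed under 1 CPM in every library.

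To show the regulatory sequence of genes whose transcript differed between groups, the RefSeq promoter windows (build GRCm38.p6, 250 bases before to 50 bases after the transcript start) are given for Insig1, Elovl5 and, for its start at the lowest coordinate, Srebf1, the members past the test that had an entry. Each is written 5′ to 3′ on the gene's own strand, with capitals marking the CCAAT box (letters CCAAT, or ATTGG where it lies on the other strand), a promoter element bound by NF-Y, a known partner of SREBP proteins. Insig1 lies at chr5:28071162-28071461 on the plus strand, Elovl5 at chr9:77917115-77917414 on the plus strand and Srebf1 at chr11:60210422-60210721 on the minus strand.
Insig1: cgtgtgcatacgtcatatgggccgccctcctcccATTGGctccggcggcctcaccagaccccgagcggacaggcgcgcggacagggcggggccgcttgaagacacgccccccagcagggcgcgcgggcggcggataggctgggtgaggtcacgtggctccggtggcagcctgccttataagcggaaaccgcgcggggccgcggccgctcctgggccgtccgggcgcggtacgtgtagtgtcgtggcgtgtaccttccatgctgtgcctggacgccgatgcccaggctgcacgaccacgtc
Elovl5: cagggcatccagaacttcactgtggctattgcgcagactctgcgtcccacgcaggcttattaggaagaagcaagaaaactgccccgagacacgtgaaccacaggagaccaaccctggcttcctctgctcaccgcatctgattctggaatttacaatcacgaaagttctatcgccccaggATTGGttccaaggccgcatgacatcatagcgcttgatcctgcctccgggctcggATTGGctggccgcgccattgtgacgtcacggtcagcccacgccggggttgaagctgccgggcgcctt
Srebf1: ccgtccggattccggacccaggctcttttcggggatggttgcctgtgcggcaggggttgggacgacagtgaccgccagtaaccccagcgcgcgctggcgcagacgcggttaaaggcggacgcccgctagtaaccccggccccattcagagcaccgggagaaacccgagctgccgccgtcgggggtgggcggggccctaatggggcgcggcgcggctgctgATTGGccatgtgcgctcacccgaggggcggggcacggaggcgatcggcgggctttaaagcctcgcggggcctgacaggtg

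The Elovl5 window held 2 CCAAT boxes, and the windows of Insig1 and of this Srebf1 start held 1 each. Of the 23 member genes with a window, 19 (82.6%) had a CCAAT box on either strand in at least 1 of their windows, and so did 41.1% of the 27018 genes in the table. Counted by window, 20 of 29 member windows held the box against 37.4% of 32841 windows. The sterol regulatory element that SREBP proteins bind, searched on both strands as TCACNCCAC, matched 1 member window, that of Hmgcs1, and 1.24% of all windows. A longer form, with an A before these letters, was found in none of the 29 member windows and in 0.234% of all windows. These are counts of letters and not of bound sites. Fdps, Fdft1, Sqle, Fads1, Scd1 and Scd2 had no window in the table.

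Scd2 was the most abundant member in every group when levels were taken per kilobase of exon. Stearoyl-CoA desaturases, encoded by Scd1 and Scd2, place the first double bond in saturated fatty acyl-CoA. Per kilobase, Scd2 averaged 236 CPM in P1 GFP+ cells, 179 in P1 GFP-, 334 in P6 GFP+ and 206 in P6 GFP- cells, and its libraries lay apart from those of the next gene in each group. Fads2, the delta-6 desaturase, came second in all groups but P6 GFP+, and its P1 GFP+ libraries overlapped with those of Acly, which makes cytosolic acetyl-CoA from citrate. In P6 GFP+ cells the second place was held by Scd1, at 160 CPM per kilobase, ahead of Fads2 at 73.0, whose libraries overlapped with those of Fasn, the fatty acid synthase. In P1 GFP+ cells Scd1 stood 27th of 28 members, at 5.05 CPM per kilobase, above Lss alone. By this measure Lss, which closes squalene epoxide into lanosterol, was the lowest member in all 4 groups, at 2.6 to 4.2 CPM per kilobase. Ranks by this measure depend on merged exon length, which was 10787 bases for Lss and 1508 bases for Fads2. By CPM alone, Fads2 averaged 80.3 in P1 GFP+ cells, below Fasn at 424 and Acly at 274, among others. Without division by length, Lss read 30.9 and 33.5 CPM in P1 GFP+ libraries and Scd1 read 23.9 and 25 CPM. Both genes then lay above the sterol gene Ebp, at 15.2 and 16.8 CPM in those libraries.

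**Figure D2:**
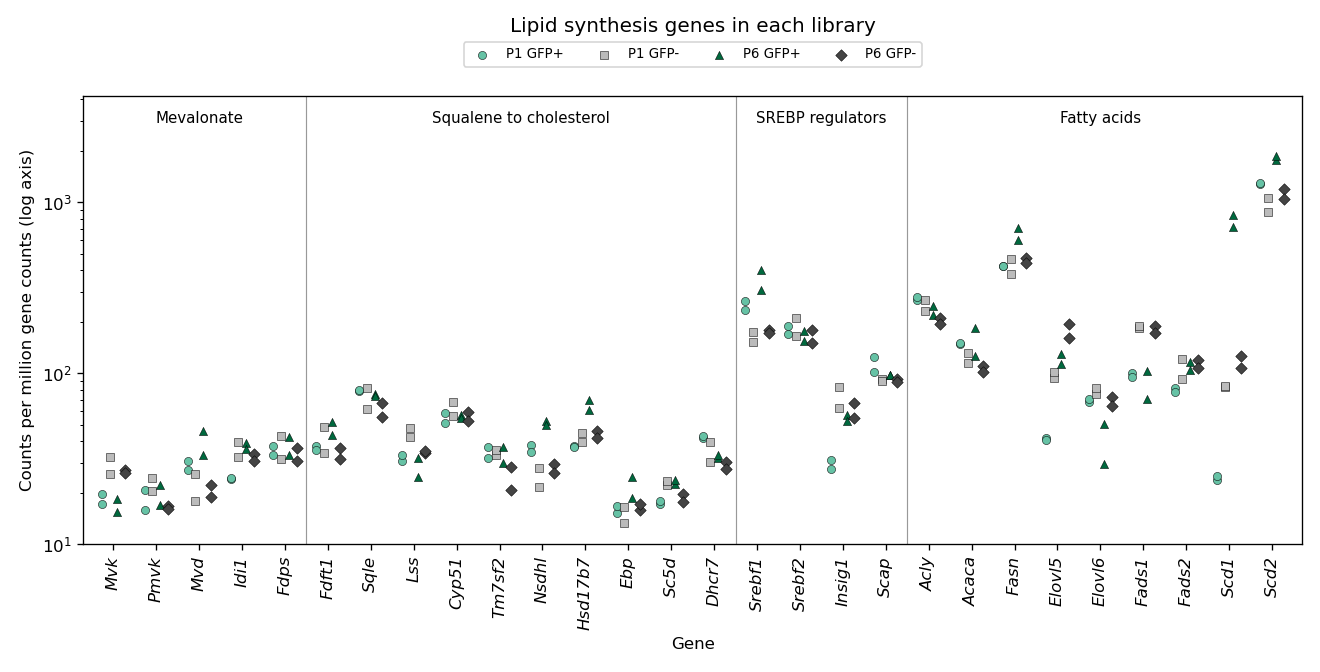
CPM (log axis) of the 28 measured lipid synthesis genes, ordered by pathway step, in each of the 8 libraries. Levels of different genes are not divided by length here. Scd1 ranges from 23.9 to 838 CPM between libraries, and the sterol genes between Mvk and Dhcr7 stay between 13.4 and 82.6 CPM.

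The summed level of the 28 members was 3473 and 3592 CPM in P1 GFP+ libraries, 3121 and 3648 CPM in P1 GFP-, 5212 and 5305 CPM in P6 GFP+, and 3708 and 3319 CPM in P6 GFP- libraries. The P6 GFP+ libraries were the highest, and the other 3 groups overlapped. Scd2 supplied 28.3 to 36.9% of the sum in every library. Scd1 supplied 16.1 and 13.5% of it in P6 GFP+ libraries and at most 3.44% in the others. Without Scd1, the sum was 4374 and 4591 CPM in P6 GFP+ libraries and 3038 to 3581 CPM elsewhere. Without both desaturases it was 2596 and 2722 CPM in P6 GFP+ libraries and 2156 to 2498 CPM elsewhere.

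Scd1 was the member whose level moved most. It lay at 23.9 and 25.0 CPM in P1 GFP+ libraries, at 83.7 and 84.1 CPM in P1 GFP-, at 838 and 714 CPM in P6 GFP+, and at 127 and 108 CPM in P6 GFP- libraries. No pair of groups overlapped: GFP+ cells were the lowest group at P1 and the highest at P6. In GFP+ cells the level at P6 was 33.9-fold that at P1 (log2 5.08 ± 0.19, SE, 2 libraries a group). Relative to GFP- cells, the log2 difference was -1.68 ± 0.08 at P1 and 2.72 ± 0.23 at P6. The value at P6 was 2.85 without P6 GFP+ replicate 2, the library with more Schwann, endothelial and strial transcript, and 2.63 without replicate 1. The 1 tested contrast of Scd1, P6 against P1 within GFP- cells, gave 0.68 ± 0.13 on the log2 scale with an adjusted p of 0.0126 in edgeR's quasi-likelihood test, which missed the threshold of 0.01 used throughout. It passed with DESeq2 (adjusted p = 0.000143), with no filter on low counts (2.63e-06) and without P1 GFP- replicate 1 (0.00473) or 2 (0.00504), and did not pass without P6 GFP- replicate 1 (0.0745) or 2 (0.0166).

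Scd1 is also a major transcript of fat cells and of myelinating glia, so the levels of their markers are given beside it. The 6 adipocyte markers together came to between 0.15 and 0.90 CPM in every library, and Adipoq, the defining one, was at 0 in 5 of the 8. The 11 Schwann cell markers summed to 477 and 616 CPM in P1 GFP+ libraries, 1006 and 1091 CPM in P1 GFP-, 1345 and 2767 CPM in P6 GFP+, and 1776 and 2056 CPM in P6 GFP- libraries, so the P6 GFP+ pair lay on both sides of the P6 GFP- pair. Between the P6 GFP+ libraries the order was opposite, with Scd1 higher in replicate 1 and the Schwann sum higher in replicate 2. The part of Schwann cell RNA in the Scd1 level was not tested further.

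Scd2 lies close to Scd1 on chromosome 19 (NCBIM37, chr19:44368166-44381354, plus strand, against chr19:44468941-44482199, minus strand, for Scd1) and had a different course. It lay at 1280 and 1295 CPM in P1 GFP+ libraries, at 882 and 1066 CPM in P1 GFP-, at 1778 and 1869 CPM in P6 GFP+, and at 1196 and 1047 CPM in P6 GFP- libraries. GFP+ libraries were above GFP- libraries at both ages, without overlap. The log2 difference was 0.51 ± 0.13 at P1 (edgeR adjusted p = 0.0201) and 0.69 ± 0.23 at P6 (adjusted p = 0.0692), and neither passed edgeR's test, while DESeq2 called both (adjusted p = 0.000679 and 0.00483). Within GFP- cells Scd2 differed between ages by 0.40 ± 0.17 (adjusted p = 0.146), and within GFP+ cells, as description, by 0.59 ± 0.16. Reads that matched more than 1 place were not counted, and both genes can lose reads where their sequences are alike.

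**Figure D3:**
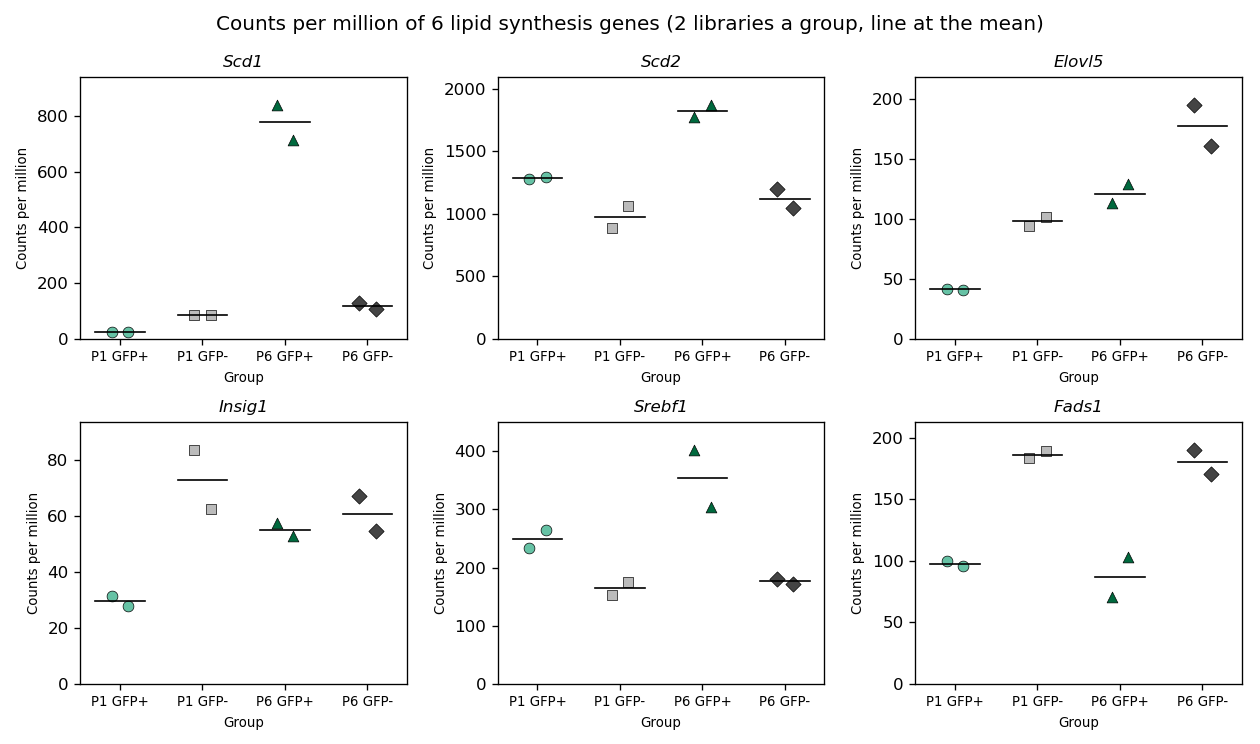
CPM of Scd1, Scd2, Elovl5, Insig1, Srebf1 and Fads1 in the 4 groups, with 1 point for each of 2 libraries a group and a line at their mean (vertical axes start at 0 and differ between genes). Scd1 is lowest in P1 GFP+ and highest in P6 GFP+ cells, Elovl5 and Fads1 are lower in GFP+ than in GFP- cells at both ages, and Srebf1 is higher in GFP+ cells at both ages.

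At P1, the comparison of GFP+ with GFP- cells asks which transcripts distinguish the GFP+ fraction from the rest of the newborn cochlea. That fraction is rich in supporting cell transcript and also holds hair cell transcript. Of the 28 members, 1 was higher in GFP+ cells (Srebf1) and 4 were lower (Insig1, Elovl5, Fads1 and Scd1, the last not read as a test) at an adjusted p below 0.01. Over all 18682 genes tested, 16.6% were higher and 20.7% lower at the same threshold, 37.3% in all, so the members' share of 17.9% was below that of all genes. None of the 28 also exceeded a fold of 4, the study's criterion, against 17.8% of all genes. At an adjusted p below 0.05, 12 members passed beside 53.6% of all genes. The median log2 difference of the members was -0.03, beside 0.01 over all genes, and 14 of 28 were positive. The counts past the test, of members and of all genes, depended on single libraries. With 1 library left out, the members' median lay between -0.19 and 0.09.

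Srebf1 encodes the SREBP that mainly drives fatty acid genes. It lay at 234 and 265 CPM in P1 GFP+ libraries against 153 and 175 CPM in P1 GFP- libraries, and at 402 and 305 CPM in P6 GFP+ libraries against 180 and 172 CPM in P6 GFP- libraries. GFP+ libraries were higher at both ages, without overlap. Srebf1 rose by 0.71 ± 0.10 on the log2 scale in P1 GFP+ cells relative to GFP- cells (edgeR adjusted p = 0.00223). The call was lost when all 8 libraries entered the fit (adjusted p = 0.0131) and without P1 GFP+ replicate 1 (0.0133) or 2 (0.0233). At P6 the difference was 1.00 ± 0.21 with an edgeR adjusted p of 0.0188, which did not pass. With 1 library left out it ranged from 0.82 (without P6 GFP+ replicate 1) to 1.21 (without P6 GFP+ replicate 2). In GFP- cells it differed between the ages by 0.30 ± 0.12 (adjusted p = 0.124).

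Srebf2 encodes the SREBP that mainly drives cholesterol genes. Its level was 169 and 189 CPM in P1 GFP+, 166 and 210 CPM in P1 GFP-, 154 and 177 CPM in P6 GFP+ and 178 and 151 CPM in P6 GFP- libraries. All 4 groups overlapped. The log2 difference between GFP+ and GFP- cells was 0.03 ± 0.13 at P1 (adjusted p = 0.849) and 0.00 ± 0.18 at P6 (adjusted p = 0.995). Scap, the escort protein, averaged 114 ± 16.2 CPM (SD, n = 2) in P1 GFP+ cells and between 90.8 and 97.3 CPM in the other groups. Its log2 difference at P1, 0.42 ± 0.11, did not pass edgeR's test (adjusted p = 0.0171), while DESeq2 called it.

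Insig1, which retains the SREBP escort in the endoplasmic reticulum and is itself a target of SREBP proteins, fell by 1.20 ± 0.17 on the log2 scale in P1 GFP+ cells relative to GFP- cells (edgeR adjusted p = 0.00184). Its libraries read 31.3 and 27.7 CPM in P1 GFP+, 83.5 and 62.3 CPM in P1 GFP-, 57.3 and 52.7 CPM in P6 GFP+ and 67.1 and 54.6 CPM in P6 GFP- cells. The P1 GFP+ libraries were below all others, and the fractions overlapped at P6, where the difference was -0.15 ± 0.17 (adjusted p = 0.546). Without P1 GFP+ replicate 2 the P1 call was lost (adjusted p = 0.0167). Within GFP- cells Insig1 differed between ages by -0.07 ± 0.18 (adjusted p = 0.831), and within GFP+ cells, as description, by 0.99 ± 0.15.

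Elovl5 elongates polyunsaturated fatty acids. It was 41.8 and 40.5 CPM in P1 GFP+ libraries against 93.9 and 102 CPM in P1 GFP- libraries, and 113 and 129 CPM in P6 GFP+ against 195 and 161 CPM in P6 GFP- libraries. The fractions did not overlap at either age, and within each fraction the P6 libraries were higher. Elovl5 fell by 1.14 ± 0.09 on the log2 scale in P1 GFP+ cells relative to GFP- cells (edgeR adjusted p = 0.000186), a call kept without any 1 of the 4 libraries. At P6 the difference was -0.56 ± 0.18 (adjusted p = 0.0623). Within GFP- cells Elovl5 rose by 1.06 ± 0.14 from P1 to P6 (adjusted p = 0.00342), and this call was lost without P6 GFP- replicate 1 (adjusted p = 0.0179). Within GFP+ cells the difference was 1.65 ± 0.12, as description.

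Fads1 encodes the delta-5 desaturase, which acts beside Fads2 and Elovl5 in making long polyunsaturated fatty acids. Its libraries read 100 and 95.4 CPM in P1 GFP+, 184 and 189 CPM in P1 GFP-, 70.6 and 103 CPM in P6 GFP+ and 190 and 171 CPM in P6 GFP- cells. GFP+ libraries were lower at both ages, without overlap, while the ages overlapped. Fads1 fell by 0.83 ± 0.09 on the log2 scale in P1 GFP+ cells (edgeR adjusted p = 0.000613), a call lost without P1 GFP+ replicate 2 (adjusted p = 0.0112). At P6 the difference was -1.06 ± 0.22 (edgeR adjusted p = 0.0173), which did not pass. With 1 library left out it ranged from -1.34 (without P6 GFP+ replicate 2) to -0.78 (without P6 GFP+ replicate 1). Fads2 averaged 80.3 ± 3.03 CPM in P1 GFP+ and 107 ± 21.2 CPM in P1 GFP- cells, a difference of -0.31 ± 0.14 (adjusted p = 0.121), and 110 ± 8.92 against 113 ± 9.29 CPM at P6.

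Fasn, Acaca and Acly carry out the first steps of fatty acid synthesis. Fasn lay at 424 and 425 CPM in P1 GFP+, 383 and 467 CPM in P1 GFP-, 605 and 703 CPM in P6 GFP+ and 475 and 443 CPM in P6 GFP- libraries. The P6 GFP+ libraries were above all others. The difference between fractions was 0.10 ± 0.12 at P1 (adjusted p = 0.51) and 0.51 ± 0.20 at P6 (adjusted p = 0.104), and neither passed the test. Acaca, the acetyl-CoA carboxylase, was 148 and 150 CPM in P1 GFP+ against 115 and 132 CPM in P1 GFP- libraries (0.38 ± 0.10, adjusted p = 0.02). Acly averaged between 202 and 274 CPM over the 4 groups. Elovl6, which lengthens palmitate to stearate, the substrate of the Scd enzymes, averaged 69.4 ± 1.62 CPM in P1 GFP+ and 40.0 ± 14.9 CPM in P6 GFP+ cells, against 79.3 ± 4.6 and 68.8 ± 5.84 CPM in the GFP- cells. Its P6 difference between fractions was -0.79 ± 0.26 (adjusted p = 0.068). In GFP+ cells Elovl6 and Scd1 thus differed between ages in opposite directions, -0.71 ± 0.25 and 5.08 ± 0.19 on the log2 scale.

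**Figure D4:**
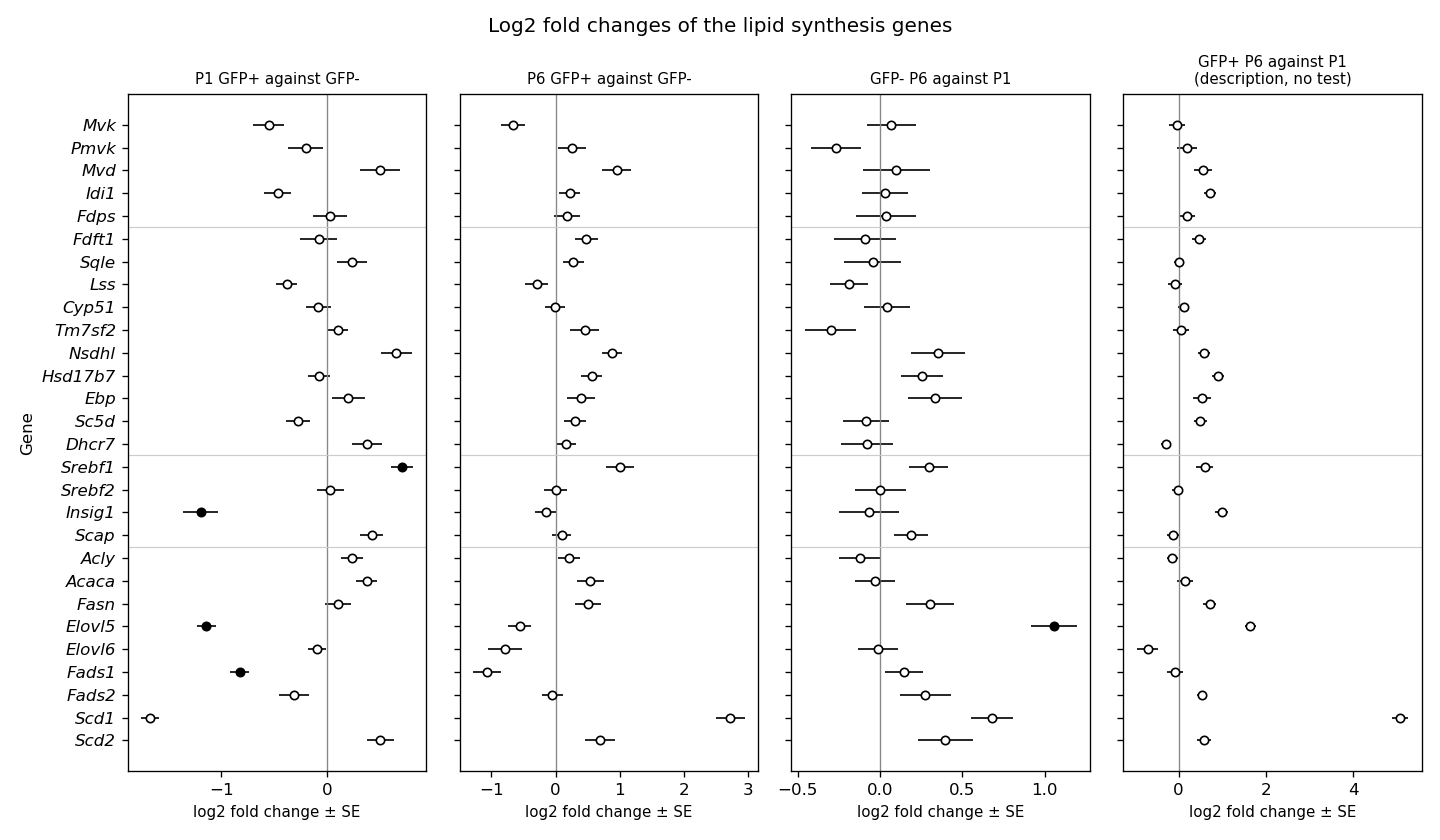
Log2 fold change with its standard error for the 28 measured members in 4 comparisons, ordered by pathway step (horizontal scales differ). Filled points have an adjusted p below 0.01 in edgeR's quasi-likelihood test, open points do not or are given as description, which covers the whole GFP+ panel and Scd1 in the first 2 panels. Filled are Srebf1, Insig1, Elovl5 and Fads1 at P1 and Elovl5 with age in GFP- cells.

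None of the 15 measured genes from Mvk to Dhcr7, which build mevalonate into cholesterol, passed the test in any of the 3 tested comparisons, and their median log2 differences lay between -0.20 and 0.35 for the 5 mevalonate and 10 later genes taken separately. All stayed between 13.4 and 82.6 CPM in every library. At an unadjusted p below 0.05 there were 6 at P1, 5 at P6 and 0 with age in GFP- cells, and DESeq2 called Mvk and Nsdhl at P1, Mvd and Nsdhl at P6 and none with age. The lowest adjusted p at both ages belonged to Nsdhl, which removes the methyl groups at carbon 4 of the sterol. Nsdhl averaged 36.4 ± 2.32 CPM (SD, n = 2) in P1 GFP+ cells, 24.8 ± 4.38 CPM in P1 GFP-, 51.1 ± 1.73 CPM in P6 GFP+ and 27.7 ± 2.28 CPM in P6 GFP- cells. The GFP+ libraries were higher at both ages, by 0.66 ± 0.15 at P1 (edgeR adjusted p = 0.0124) and 0.88 ± 0.16 at P6 (adjusted p = 0.0121).

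Mvd, the last enzyme before the isoprenoid units, averaged 28.9 ± 2.58 CPM in P1 GFP+, 21.9 ± 5.77 CPM in P1 GFP-, 39.8 ± 8.89 CPM in P6 GFP+ and 20.5 ± 2.22 CPM in P6 GFP- cells. Its log2 difference at P6 was 0.95 ± 0.23 (adjusted p = 0.0258). Mvk, the mevalonate kinase, lay the other way: it was 17.3 to 19.6 CPM in P1 GFP+ and 15.4 to 18.5 CPM in P6 GFP+ libraries, against 25.8 to 32.2 CPM and 26.2 to 27.2 CPM in the GFP- libraries. Its difference was -0.55 ± 0.14 at P1 (adjusted p = 0.0209) and -0.66 ± 0.19 at P6 (adjusted p = 0.0423). Lss averaged 32.2 ± 1.9 CPM in P1 GFP+ and 45.0 ± 3.66 CPM in P1 GFP- cells (-0.38 ± 0.10, adjusted p = 0.021).

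Pmvk, Fdps, Fdft1, Sqle, Cyp51, Tm7sf2, Ebp and Dhcr7 differed between the fractions at P1 by -0.20 to 0.38 on the log2 scale, with adjusted p between 0.0639 and 0.904. Sqle, the squalene epoxidase at which oxygen first enters the pathway, averaged 79.2 ± 1.23 CPM in P1 GFP+, 72.1 ± 14.8 CPM in P1 GFP-, 74.4 ± 1.69 CPM in P6 GFP+ and 61.2 ± 8.01 CPM in P6 GFP- cells. Cyp51, the lanosterol demethylase, averaged between 55.0 and 62.3 CPM over the groups. Dhcr7, which completes cholesterol, averaged 42.4 ± 0.981 CPM in P1 GFP+, 35.0 ± 6.61 CPM in P1 GFP-, 32.7 ± 1.09 CPM in P6 GFP+ and 29 ± 1.94 CPM in P6 GFP- cells. Fdft1, the squalene synthase, was 43.5 to 51.8 CPM in P6 GFP+ and 31.7 to 36.5 CPM in P6 GFP- libraries (0.48 ± 0.18, adjusted p = 0.0959).

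At P6, the same comparison of the fractions found 1 of the 28 members past the test, Scd1, whose value is a description. Over all 18294 genes, 12.9% passed, 7.72% higher and 5.19% lower. With the fold above 4 the count was again 1, against 7.98% of all genes, and at an adjusted p below 0.05 it was 7, against 33.5%. The median log2 difference of the members was 0.24, against -0.02 over all genes, and 20 of 28 were positive. By CPM, 18 members lay higher in both P6 GFP+ libraries than in either P6 GFP- library and 5 lay lower, that is 64.3% and 17.9%, where 35.7% and 37.6% of all genes did so. At P1 the corresponding counts were 8 higher and 11 lower, against 34.5% and 44.9% of all genes. Both ages' counts were not tested as a set.

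The number of members past the test at P6 turned on single libraries. The number of all genes past it did so too, and the members' counts without single libraries are not read as results. The median of the members stayed above 0 in each fit without 1 library, between 0.14 and 0.34.

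Within GFP- cells, the comparison of P6 with P1 asks how the rest of the cochlea changed over the same days. It found 1 member higher, Elovl5, and none lower. Over all 18920 genes, 7.38% passed, 5.04% higher and 2.34% lower. With the fold above 4 none passed (3 members had an unadjusted p below 0.05), against 1.85% of all genes, and at an adjusted p below 0.05 there were 2, against 19.1%. The members' median was 0.04 against -0.02 over all genes. Scaling by library totals moved the median of all genes to -0.21 and that of the members to -0.15, and Elovl5 still passed (0.86, adjusted p = 0.00813). Proliferation markers, 8 genes, summed to 512 and 444 CPM in P1 GFP- and 139 and 117 CPM in P6 GFP- libraries, and their part in these values was not tested.

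In GFP+ cells, the contrast from which the list was drawn up, 2 of 28 members lay past the same threshold (Scd1 and Elovl5), where 4.81% of 17213 genes did, 1 with the fold above 4 (2.56% of all genes) and 8 at an adjusted p below 0.05 (20.4%), and the members' median was 0.34 against 0.00 over all genes. These values are given as description. With 1 library left out, the counts of members and of all genes both moved, and the members' median lay between 0.285 and 0.46. After Scd1 and Elovl5, the largest differences from P1 to P6 were 0.99 ± 0.15 for Insig1, 0.91 ± 0.14 for Hsd17b7, a ketosteroid reductase of the cholesterol pathway, 0.72 ± 0.14 for Idi1, the isopentenyl diphosphate isomerase, and 0.71 ± 0.14 for Fasn. Idi1 averaged 24.2 ± 0.15 CPM (SD, n = 2) in P1 GFP+ and 37.6 ± 1.95 CPM in P6 GFP+ cells. Hsd17b7 averaged 37.2 ± 0.311 and 65.4 ± 5.85 CPM. Markers of several other cell types lay higher in P6 than in P1 GFP+ libraries. The 8 fibrocyte and mesenchyme markers summed to 499 and 445 CPM at P1 and to 1773 and 3562 CPM at P6. The 5 endothelial markers summed to 25.4 and 22.3 CPM and to 50.4 and 196 CPM. The Schwann sums given beside Scd1 were also higher at P6. Other sums overlapped between the ages: the strial list read 52.6 and 43.2 CPM at P1 and 30.8 and 211 CPM at P6. So did 6 cartilage and bone markers (5151 and 6526 CPM, then 4697 and 7999 CPM) and the proliferation markers (32.8 and 33.5 CPM, then 19.0 and 50.9 CPM). The part of other cell types in the members' values was not tested. The comparisons between fractions and between ages share libraries pairwise, and their values for a gene are not independent.

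Genes of the same metabolism outside the list were counted over whole lists, beside the shares of all genes given above for each comparison. Of 7 other genes of sterol synthesis, none was higher and 3 were lower in P1 GFP+ than P1 GFP- cells, and none passed at P6 or with age in GFP- cells (edgeR), where 5 and 1 had an unadjusted p below 0.05 and DESeq2 called 3 lower and none. Of 24 other genes of fatty acid synthesis and activation, 23 were tested at each age, of which 9 were higher and 3 lower in GFP+ cells at P1 and 6 were higher and none lower at P6. At P1 the largest rises were those of Scd3, another stearoyl-CoA desaturase (2.35 ± 0.43 on the log2 scale, edgeR adjusted p = 0.00537), and Me1, the malic enzyme that supplies NADPH (1.70 ± 0.25, adjusted p = 0.00212). Scd3 nevertheless stayed between 1.53 and 1.79 CPM in those GFP+ libraries. Fads3, a relative of Fads1, fell by 2.72 ± 0.25 (adjusted p = 0.000312), and Slc25a1, the mitochondrial citrate carrier, by 1.17 ± 0.11 (adjusted p = 0.000349).

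At P6, Mid1ip1 and Acsl3 had the largest rises of that list. Mid1ip1, which promotes the assembly of acetyl-CoA carboxylase, read 145 and 96.2 CPM in P6 GFP+ and 15.7 and 14.4 CPM in P6 GFP- libraries, a rise of 3.00 ± 0.26 on the log2 scale (edgeR adjusted p = 0.00159). Acsl3, an acyl-CoA synthetase of lipid droplets and the endoplasmic reticulum, read 2146 and 1574 CPM in P6 GFP+ and 295 and 247 CPM in P6 GFP- libraries, a rise of 2.78 ± 0.29 (adjusted p = 0.00255). At P1 the values were 346 and 337 CPM for Acsl3 in GFP+ libraries against 118 and 138 CPM in GFP- libraries, and 16.3 and 17.0 CPM against 11.9 and 17.2 CPM for Mid1ip1. P6 GFP+ libraries were thus the highest for both genes, as for Scd1, and replicate 1 was above replicate 2 for all 3. With age in GFP- cells 4 genes of the list rose, led by Thrsp, a relative of Mid1ip1 (2.34 ± 0.36, adjusted p = 0.00663), and the elongase Elovl7 (1.58 ± 0.22, adjusted p = 0.0043). Thrsp stayed at 1.83 and 2.19 CPM in P6 GFP- libraries, beside 14.5 and 9.88 CPM in P6 GFP+ libraries.

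**Figure D5:**
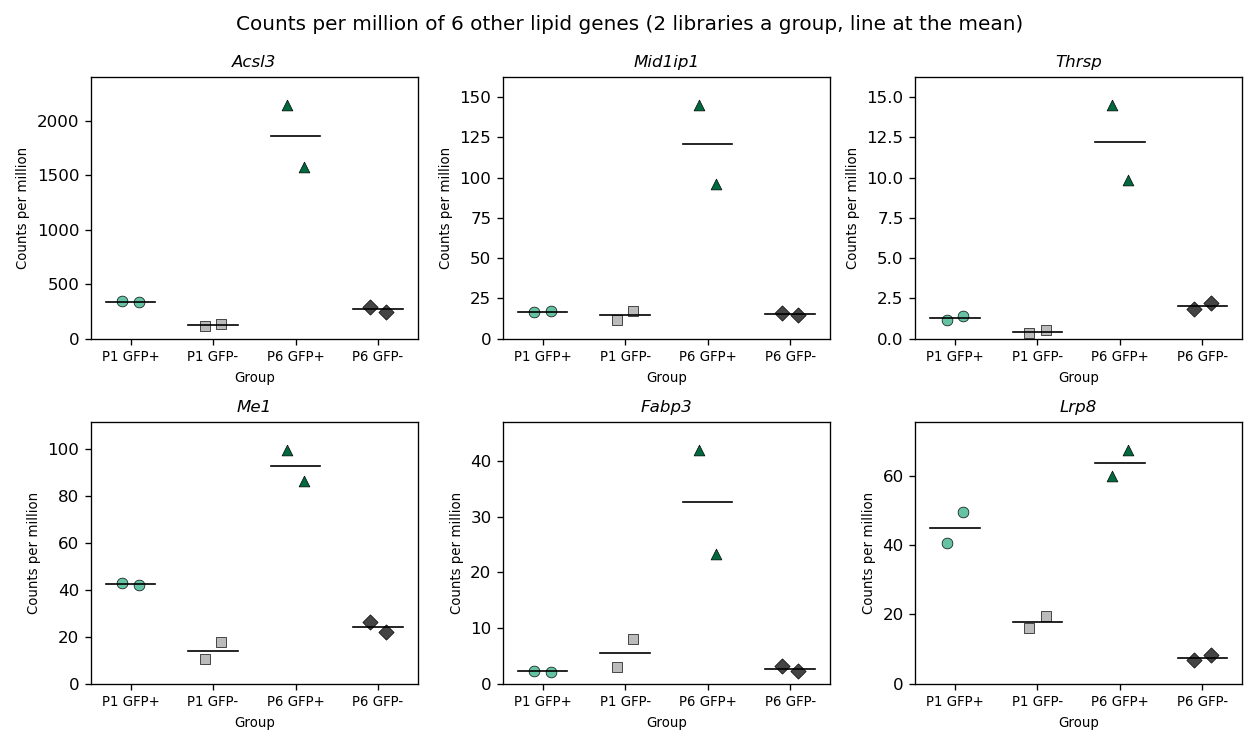
CPM of 6 lipid genes outside the list (Acsl3, Mid1ip1, Thrsp, Me1, Fabp3 and Lrp8) in the 4 groups, with 1 point for each of 2 libraries and a line at their mean (vertical axes start at 0 and differ). Each of these 6 chosen genes is highest in the P6 GFP+ libraries, and Acsl3 reaches 2146 and 1574 CPM there. Genes of the same lists that are not shown lay otherwise. Apoe, for example, read 139 and 234 CPM in P6 GFP+ and 961 and 852 CPM in P6 GFP- libraries.

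Of 17 genes of sterol and fatty acid uptake and transport, 3 were higher and 8 lower in GFP+ cells at P1, and 5 were higher and 6 lower at P6. Lrp8, a lipoprotein receptor, rose in GFP+ cells at both ages, by 1.44 ± 0.14 (adjusted p = 0.000395) and 3.07 ± 0.18 (adjusted p = 0.000751), and Abcg1, a sterol exporter, rose by 2.21 ± 0.25 at P1 (adjusted p = 0.00076). At P6 the largest rise was that of Fabp3, a fatty acid binding protein, which read 41.9 and 23.2 CPM in GFP+ against 3.18 and 2.19 CPM in GFP- libraries (3.60 ± 0.39, adjusted p = 0.00298). Cd36, a fatty acid transporter of endothelium and macrophages, fell by 4.24 ± 0.28 at P1 (adjusted p = 9.4e-05) and by 3.03 ± 0.52 at P6 (adjusted p = 0.00996). Lpl, the lipoprotein lipase, fell by 3.92 ± 0.34 at P1 (adjusted p = 0.000269), and Soat1, which esterifies cholesterol, by 2.87 ± 0.43 at P6 (adjusted p = 0.00715). With age in GFP- cells 4 genes of this list rose and 1 fell.

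Of 17 lipid regulators, 4 were higher and 4 lower in GFP+ cells at P1. The largest rises were those of Thrb, a thyroid hormone receptor (1.47 ± 0.29, adjusted p = 0.00745), and Mlxipl, a glucose-responsive activator of lipogenic genes (1.13 ± 0.17, adjusted p = 0.00225). The largest falls were those of Nr1h3, a liver X receptor, by 3.22 ± 0.38 (adjusted p = 0.000895), and Ppargc1a, by 2.20 ± 0.19 (adjusted p = 0.000279). At P6 Pparg, the adipogenic nuclear receptor, was the 1 regulator past edgeR's test (11 of 17 had an unadjusted p below 0.05, and DESeq2 called 1 higher and 5 lower), with 1.58 and 1.67 CPM in GFP+ against 0.276 and 0.281 CPM in GFP- libraries (2.53 ± 0.38, adjusted p = 0.00716). With age in GFP- cells 1 rose, Prkaa2, a catalytic subunit of AMP-activated kinase (1.03 ± 0.11, adjusted p = 0.0016). Of 12 genes of fatty acid oxidation, 3 were higher and 3 lower at P1, and at P6 Cpt2, which completes fatty acid entry into mitochondria, rose by 1.29 ± 0.20 (adjusted p = 0.00818) while Cpt1c fell by 1.14 ± 0.17 (adjusted p = 0.00718). None of the 12 passed with age in GFP- cells in edgeR, where 3 had an unadjusted p below 0.05 and DESeq2 called 1 higher and 1 lower.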

How the data were processed

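RNA from sorted GFP+ and GFP- cochlear cells was sequenced in paired 100-base reads (2 libraries a group). The authors aligned reads to mm9 (TopHat 1.4.0 in the submitters' processing notes) and deposited raw counts per Ensembl gene, made with HTSeq. The study's methods reserve an extra amplification for samples of fewer sorted cells than the freshly dissected ones used here. Between 23.8 and 35.3% of the listed reads were on no gene and were left out of totals.

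From these counts, CPM by gene total and CPM per kilobase of merged exons (NCBIM37) were computed. Genes were kept by filterByExpr (minimum count 10, minimum total 15), scaled by TMM and tested with edgeR 4.0.16 (R 4.3.3) by the quasi-likelihood test on the 4 libraries of each comparison, Benjamini-Hochberg adjusted over all genes. A gene was called at an adjusted p below 0.01. All errors of log2 differences are SE. No source ties replicates to separate litters, so p-values measure the spread between these libraries only. DESeq2 1.42.0 was an alternative, and the procedure was tested on simulated data. Of members, those called and the 4 with the largest change per direction, plus Scd1, Scd2, Srebf1, Srebf2, Insig1 and Fasn, were to be given per library. Of the other lists, the 2 largest changes per direction among those called could be named. Other values per library or per group were chosen for print after they were seen. The members and lists were chosen with earlier results of these data known. Symbols were read from the NCBIM37 gene models, in which 34391 of 36536 identifiers were found.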

Additional observations from a re-analysis of the deposited data

Results flagged for a closer look

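For Scd1, Idi1, Sc5d and Hsd17b7 the libraries of the fractions lay apart by CPM in opposite directions at the ages. How many of all genes did the same was not counted. For Scd1 the log2 difference between GFP+ and GFP- cells was -1.68 at P1 and 2.72 at P6, for Idi1 -0.47 and 0.22, for Sc5d, a sterol desaturase, -0.28 and 0.30, and for Hsd17b7 -0.08 and 0.56. Sc5d also differed between ages in opposite directions, by 0.50 in GFP+ and by -0.08 in GFP- cells. The log2 values are scaled by TMM, and those of -0.08 are small. By CPM, 44.9% of all genes lay lower in both P1 GFP+ than in either P1 GFP- library. With age in GFP- cells, 48.9% lay lower at P6. These differences of differences were not tested, since the list was drawn up on the change of Scd1 in GFP+ cells. With 2 libraries a group, single libraries could not be checked for lying far from the rest of their group.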

How the results depend on the processing

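The counts of members past the threshold depended on the test and the filter. At P1 (1 higher, 4 lower), DESeq2 gave 4 higher, no filter on low counts gave 6 higher and 7 lower, all 8 libraries in 1 fit gave 0 higher, an adjusted p below 0.05 gave 5 higher and 7 lower, and a fold above 4 gave 0 higher and 0 lower. At P6 (1 higher, 0 lower), DESeq2 gave 5 higher and 1 lower, no filter 4 and 2, all 8 libraries 3 and 1, and an adjusted p below 0.05 gave 5 and 2. In GFP- cells with age (1 higher), DESeq2, no filter and an adjusted p below 0.05 each gave 2, and a fold above 4 gave 0. In GFP+ cells with age (2 higher, 0 lower), DESeq2 gave 8 higher, no filter 6 higher and 1 lower, all 8 libraries 4 higher, an adjusted p below 0.05 gave 8 and a fold above 4 gave 1. The causes were not tested. Leaving out 1 library gave 0 to 9 members higher and 2 to 9 lower at P1, 0 to 8 higher and 0 to 3 lower at P6, 0 to 2 higher with age in GFP- cells, and with age in GFP+ cells 1 to 15 higher and 0 to 2 lower. There the lone library is assumed to vary like the other group.

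The number of all genes called ranged from 3331 to 10022 at P1 (6972 in the main comparison), from 1459 to 6122 at P6 (2363), from 350 to 3993 in GFP- cells with age (1397) and from 441 to 4090 in GFP+ cells with age (828) over these settings, and without 1 library from 0 (without P6 GFP- replicate 2) to 7767 at P6. Scaling by library totals moved the share of higher calls from 59.8 to 71.4% at P6 and from 68.3 to 49.5% in GFP- cells with age. The members' median at P1 changed sign when single libraries were left out (-0.19 to 0.09). Among 1400 values of single members, those at an adjusted p below 0.05 or a fold above 4 reused the main fit and could not change sign. Of the 1400, 1188 kept their sign and side of the threshold, 122 newly passed and 16 no longer passed. A further 74 values that had not passed changed sign, and no called value reversed. Over these alternatives the adjusted p at P1 ranged from 1.63e-08 to 0.0233 for Srebf1, from 2.35e-20 to 0.0167 for Insig1, from 2.11e-20 to 0.00393 for Elovl5 and from 1.1e-12 to 0.0112 for Fads1. At P6 it ranged from 1.26e-05 to 0.154 for Srebf1 and from 9.48e-06 to 0.115 for Fads1, and with age in GFP- cells from 8.7e-14 to 0.0179 for Elovl5 and from 2.63e-06 to 0.0745 for Scd1.

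The correlation of replicate differences was 0.037 between the fractions at P1 and 0.061 at P6. Between the ages it was -0.326 for GFP- and -0.154 for GFP+ cells. Whether fractions of the same number came from the same sort cannot be decided from these values, since each group gives 1 difference. With the replicate block, 1 member was higher and 4 lower at P1, 1 higher at P6, 1 higher with age in GFP- cells and 2 higher with age in GFP+ cells, as without it. With the numbers crossed, an alternative added after seeing the data, the replicate block gave 2 members (Elovl5 and Scd1, adjusted p = 0.00208 for Scd1) and 3063 genes with age in GFP- cells, and 2 members and 1254 genes with age in GFP+ cells.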
